A study of Sus scrofa with 9 samples.

Results

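Putative new microRNAs (miRNAs) of pig skeletal muscle for which the deposited table lists only 1 arm of the hairpin, and lists it in at least 2 of 9 libraries, are described here. They were found by name: an entry was taken when its hairpin had a single arm in the table of putative new miRNAs and its copies were filled in at least 2 libraries, and 10 entries of 6 named hairpins were left out. The rule gave 132 entries among the 526 of the deposited tables, 73 of them 5p arms and 59 3p arms. Since the rule uses where an entry is listed, the number of libraries per entry is a description and not a finding. Small RNA came from the longissimus dorsi, a back muscle, of female Jinhua pigs, with 1 library each from fetuses at day 90 of gestation (E90), newborns (day 0) and day 30, and 3 libraries each at day 180 and 7 years. No treatment or genetic change is given for any animal. The sources used here do not say how the pigs were spread over libraries, so a p-value measures only how far libraries lie apart, which may be technical. A level in RPM is the number of copies per 1000000 high-quality reads.

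A miRNA is cut from a hairpin transcript by the enzymes Drosha and Dicer, which leaves a short duplex. The strand from the 5′ side of the hairpin is the 5p arm and that from the 3′ side the 3p arm, and usually 1 of them is kept in the silencing complex while the other is degraded. Finding both arms in the reads is a common criterion for calling a new miRNA, and single-armed entries lack it. Bases 2 to 8 of the mature miRNA, the seed, pair with target mRNAs. Some miRNAs, called mirtrons, are hairpins made of a whole short intron, are released by splicing instead of Drosha, and so begin at the GT and finish at the AG of the intron. In flies the 3′ ends of mirtron hairpins are tailed with uridine.

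The consensus sequences of the 10 members with the highest mean RPM are shown first, since they carried 35.1% to 61.2% of the members' copies in each library. They are given 5′ to 3′ with the seed in capitals.
PN-24885174-5p: tTCAAGTAacccaggataggctt
PN-1311190-3p: cGCGCGGTcgcccggggac
PN-36616-3p: tCTGAGATgtgacctgggcatc
PN-48639689-3p: gTGCACCTgggcaaggattctgaa
PN-19684419-3p: cCCCGGGCgggtcgcgcc
PN-122371794-3p: tCTGTGAActagaaacctctgg
PN-23443309-3p: aTTCCCGGccaacgcacca
PN-76693897-3p: tGAGATGAgagcccttggccact
PN-18750268-3p: cTACTCTGtccccacctccagt
PN-3335108-5p: cCCGCCCGtcgcccgcgcg
Their lengths ran from 18 to 24 nt, and 3 of them had a GC content above 89%. No seed occurred more than once among the 10. Of all members, 100 are listed on a numbered or X chromosome and the other 32 on unplaced scaffolds or under an unclear field, for which no place in the genome can be given.

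The next set shows what several members turned out to share. PN-24885174-5p (Sscrofa10, chromosome 13, 24885174 to 24885436, minus strand) has the seed of miR-26b-5p, the most abundant miRNA of the conserved table, and PN-24885175-5p is a neighbouring entry of the same locus with an undetermined base, N.
miR-26b-5p: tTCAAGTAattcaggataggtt
PN-24885174-5p: tTCAAGTAacccaggataggctt
PN-24885175-5p: tTCAAGNAacccaggataggct
Counted from the 5′ end, PN-24885174-5p differs from miR-26b-5p by T10C, T11C and T21C, with the base of miR-26b-5p given first. Among the members 9 seeds were shared with another member or with a conserved entry, the only entries searched. Most of these seeds were shared between neighbouring entries of 1 place, such as PN-117395136-5p and PN-117395137-5p. PN-137160634-3p shared the seed GATTGGC with miR-507-3p. No other miRNA, of the pig or of another species, was searched. Other likenesses, among them a closer one of PN-24885174-5p than to miR-26b-5p, were therefore not tested.

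The members were rare. Of the 1188 combinations of member and library, 459 held copies and 729 (61.4%) were empty. Listed values ran from 3 to 333 copies with a median of 7, and 278 of them (60.6%) were under 10 copies. Only 69 members reached 10 copies in any library and 5 reached 100. A floor of 3 copies, the least that a listed member had, corresponds to 0.595 RPM at E90, 0.671 at day 0, 0.863 at day 30, 0.245 to 0.332 at day 180 and 0.32 to 0.806 at 7 years. An empty cell was read here as below about that level and not as absence, but its meaning is not given. It can also be a place listed under another name. PN-45711-3p was empty in day 180 replicate 1, where PN-45712-3p, with the same consensus, held 120 copies. At day 180, 8 empty cells had at least 10 copies predicted from the stage, and at 7 years 3 had. Fold changes given below as "at least" rest on this reading and hold for 1 name, not for a locus. Just inside the rule stood 58 members listed in 2 libraries, and just outside it 212 single-armed entries listed in 1. The highest of those outside were PN-44808835-5p with 105 copies at E90, PN-80161039-3p with 39 at day 0 and PN-675-3p with 29 at E90, and the highest inside with 2 libraries was PN-19684419-3p with 84 copies at E90 and 94 at day 30. Only 4 members were listed in all 9 libraries.

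No library listed fewer members than those of 7 years, with E90 and 7 years replicate 3 at the same number. E90 listed 47, day 0 listed 66 and day 30, the shallowest library of all with 3476614 reads, listed 60. The day 180 libraries, with 9024703 to 12259667 high-quality reads the deepest but for 1 library of 7 years, listed 69, 65 and 56. The libraries of 7 years listed 33, 16 and 47, the fewest in replicate 2, which with 3720989 reads was the shallowest of these. The part of depth in these counts was not tested. At 7 years 6 members were listed in all 3 libraries, 22 in 2 and 34 in just 1, and at day 180, 33 were listed in all 3 libraries, 26 in 2 and 39 in just 1.

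By where they were listed, 46 members (34.8%) appeared at day 180 or 7 years only, 27 (20.5%) up to day 30 only, and 59 (44.7%) in both periods. The later period has 6 libraries against 3, with floors of 0.245 to 0.332 RPM at day 180 against 0.595 to 0.863 up to day 30. The part of this in the counts was not tested. Members of the later period alone had the lengths of miRNAs more often: 41 of 46 (89.1%) were 20 to 24 nt long, the usual length of miRNAs, against 17 of 27 (63%) of those of the early period alone. Their consensus matched its precursor exactly in 32 of 46 (69.6%) and 10 of 27 (37%). Because the periods were part of how these groups were formed and no test was run, these are descriptions.

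**Figure D1:**
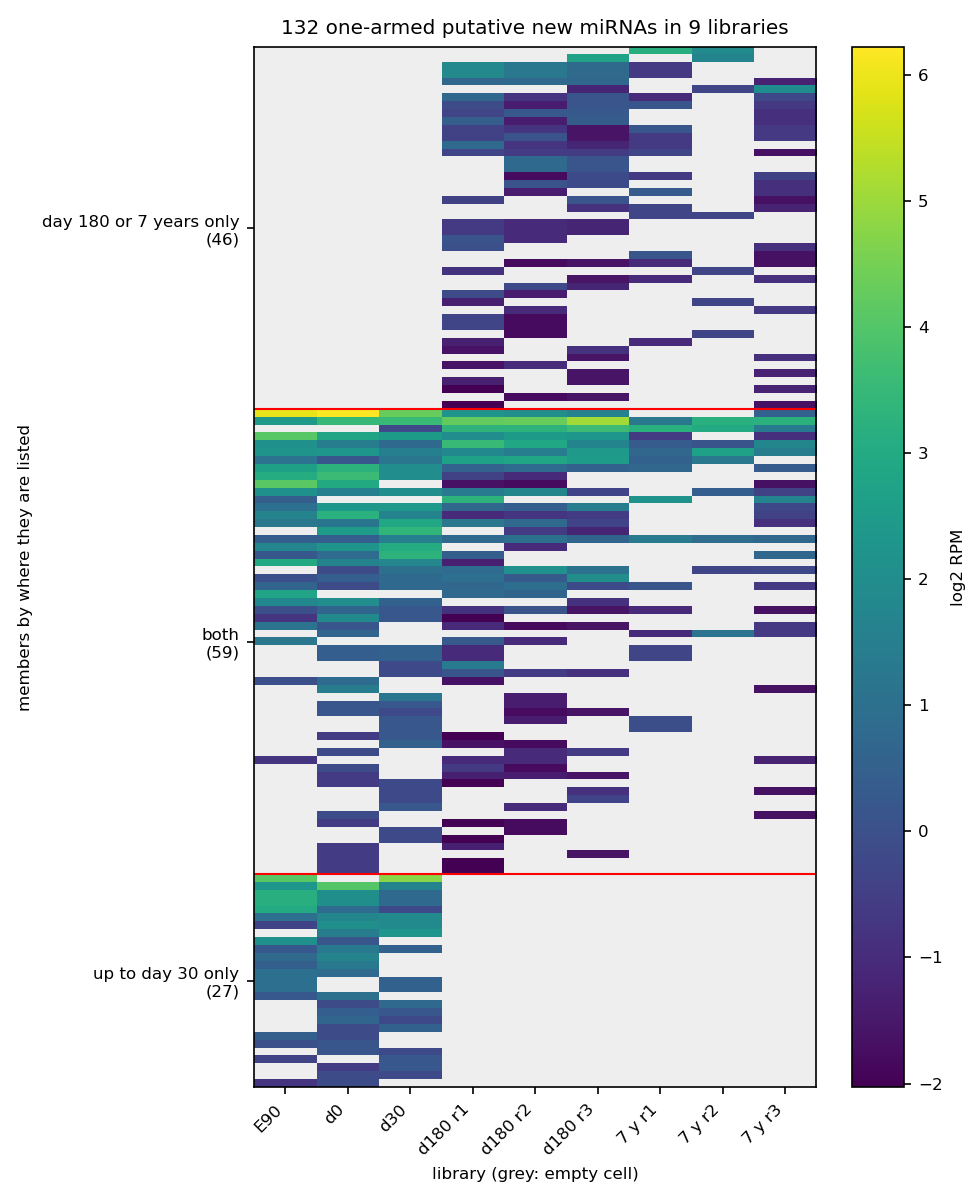
Level of each of the 132 members (rows) in each of the 9 libraries (columns), as log2 RPM by colour, with empty cells in grey. Rows are grouped by where a member was listed: 46 at day 180 or 7 years only, 59 in both periods and 27 up to day 30 only. Most cells, 61.4%, are empty.

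Per read, the members together were highest before and at birth and lowest at 7 years. Summed over members, E90 had 246 RPM, day 0 had 260, day 30 had 196, day 180 had 117 ± 10.3 and 7 years had 49 ± 4.13 (mean ± SD, n = 3 for the later ages). The libraries of 7 years stood at 52.1, 44.3 and 50.7 RPM, all below those of day 180 at 128, 107 and 117. All 6 later libraries were below all 3 libraries up to day 30. As a share of all copies in both deposited tables the order was another one: the members made up 0.911% at E90, 1.36% at day 0, 1.88% at day 30, 3.95% to 4.18% at day 180 and 2.65% to 3.43% at 7 years. Later libraries were thus lower than early ones by a smaller factor in the members than in the tables as a whole. In a bulk sample, fewer cells of a type and less RNA per cell cannot be told apart.

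Of the marker miRNAs of other cell types, 5 of 7 epithelial and 1 of 5 blood markers were measured. The epithelial markers summed to 5.59 to 14.4 RPM up to day 30, 1.25 to 2.2 at day 180 and 0.806 to 1.12 at 7 years. The blood marker miR-223-3p stood at 2.58 to 5.59 RPM up to day 30, 2.22 to 7.57 at day 180 and 0.959 to 3.85 at 7 years. Of 6 markers of skeletal and heart muscle, miR-1 and miR-208a were measured. Their sums were 0.992 to 34 RPM up to day 30, 0 to 0.767 at day 180 and 0 to 1.07 at 7 years. At the later ages these measured muscle markers were thus near the floor of a listing. The markers miR-133 and miR-206 were not analysed here, so the label of the tissue could not be checked. The part of other cell types in the members' levels was not tested.

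PN-24885174-5p, the member with the seed of miR-26b-5p, had the highest level of all. Its levels were 62.3 RPM at E90, 74.5 at day 0 and 19.6 at day 30, then 4.73, 4.12 and 2.99 at day 180 and 0, 0 and 1.49 at 7 years. It was highest at day 0 and lower at each later age, and the libraries of the early and later periods did not overlap. The picture at 7 years changes with its neighbour: PN-24885175-5p was listed only in 7 years replicates 1 and 2, at 8.81 and 3.76 RPM, the libraries in which PN-24885174-5p was empty. Joined, the locus stood at 8.81, 3.76 and 1.49 RPM at 7 years, mean 4.69 ± 3.75 (SD, n = 3), against 3.95 ± 0.882 (SD, n = 3) at day 180, and these groups overlapped. Joined copies were 0.25% to 1.43% of those of miR-26b-5p in the same library, with 55 copies against 3858 in 7 years replicate 1 and 14 against 5605 in replicate 3. miR-26b-5p itself had 6477 RPM at E90, 7522 at day 0, 3184 at day 30, 640 to 802 at day 180 and 411 to 618 at 7 years.

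PN-1311190-3p, a GC-rich entry on an unplaced scaffold, was listed everywhere. It stood at 5.35 RPM at E90, 11.4 at day 0 and 11.5 at day 30, at 19, 19.6 and 33.7 at day 180, and at 2.4, 9.14 and 9.37 at 7 years. Day 180 was the peak, and its libraries did not overlap with those of any other age. In day 180 replicate 3 this member alone made up 28.9% of the members' copies.

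PN-36616-3p was a member of the adult libraries. It had no copies at E90 and day 0 and 0.863 RPM (3 copies) at day 30, then 10.2, 9.77 and 12.3 RPM at day 180 and 9.3, 8.06 and 2.66 at 7 years. Every later library was above every early one, also when the 3 copies that the overlapping entry PN-36617-3p had at E90 were added. The table also lists the same sequence with the same copies at a second place, on chromosome 5, as a hairpin left out here, so the reads cannot be assigned to one of the places.

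PN-48639689-3p was lowest in the oldest animals. E90, day 0 and day 30 had 16.7, 6.94 and 5.47 RPM, the libraries of day 180 had 4, 5.56 and 4.99 RPM, and those of 7 years 0.641, 0 and 0.533 RPM. The libraries of 7 years lay below all others. PN-19684419-3p, another GC-rich entry (chromosome 2, 19684419 to 19684676, minus strand), was listed at E90 with 16.7 RPM and at day 30 with 27 RPM, and in none of the other 7 libraries, the intervening day 0 among them.

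PN-122371794-3p (chromosome 8, 122371794 to 122372055, minus strand) was listed in every library. It stood at 4.36 RPM at E90, 2.68 at day 0 and 1.73 at day 30, then at 11.7, 7.57 and 3.21 at day 180 and 1.28, 1.07 and 3.41 at 7 years, with a spread among the day 180 libraries of 7.48 ± 4.23 (SD, n = 3). PN-23443309-3p (chromosome 12, 23443309 to 23443567, plus strand) was steadier than PN-122371794-3p: E90, day 0 and day 30 had 4.76, 4.92 and 2.88 RPM, the libraries of day 180 had 3.51, 2.68 and 5.32, and those of 7 years 1.6, 6.45 and 2.77. Its ages overlapped throughout. PN-49755976-3p, the fourth member listed in all libraries, stayed between 1.34 and 2.88 RPM.

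PN-76693897-3p (chromosome 2, 76693897 to 76694159, plus strand) was highest at day 180. Its 3 early libraries had 2.18, 1.12 and 2.3 RPM in order of age, those of day 180 had 6.53, 7.09 and 5.65, and those of 7 years 1.44, 2.42 and 0. PN-18750268-3p (chromosome 12, 18750268 to 18750529, plus strand) was highest early, with 6.35, 9.62 and 4.03 RPM in order of age, then 1.47, 1.82 and 1.44 at day 180 and 1.6, 0 and 1.28 at 7 years. PN-3335108-5p (chromosome 8, 3335108 to 3335366, plus strand), with a GC content of 94.7%, had 8.53, 12.1 and 4.03 RPM in the early libraries in order of age, 0.734, 0.479 and 0 RPM at day 180 and no copies at 7 years.

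**Figure D2:**
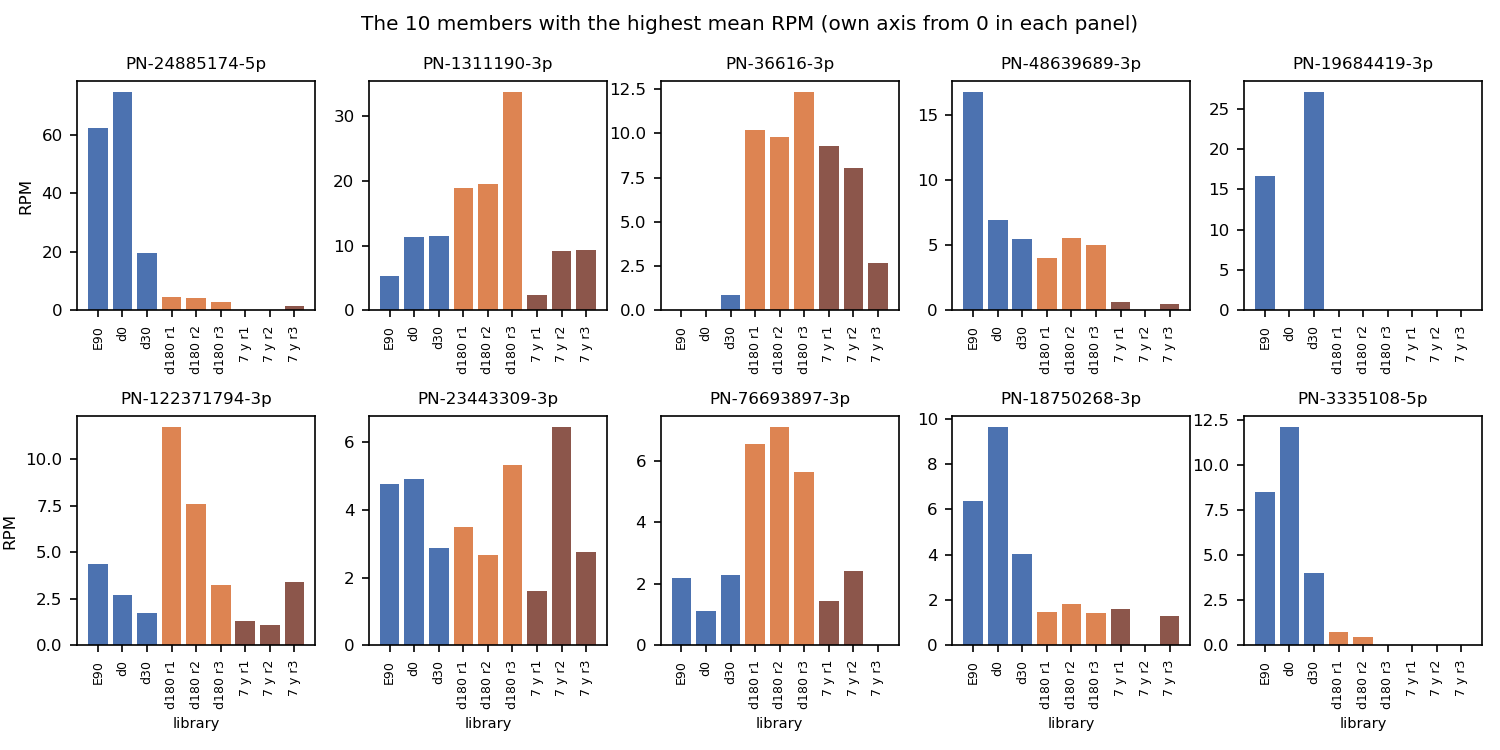
RPM of the 10 members with the highest mean level in each of the 9 libraries (blue: E90, day 0 and day 30; orange: day 180; brown: 7 years). Each bar is 1 library and each panel has its own axis from 0. PN-24885174-5p and PN-3335108-5p are high early, PN-36616-3p is high at day 180 and 7 years, and PN-1311190-3p peaks at 33.7 RPM in day 180 replicate 3.

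Overlapping entries split single loci over several names. Of the 132 members, 39 share at least 16 bases with another entry of the same chromosome field, and in 31 of them an overlapping entry fills at least 1 empty cell, 80 cells in all. Of the 23 groups of such entries that hold a member, 19 lie on 1 strand, and in 18 of these no library lists copies under more than 1 of the names. The clearest case is the pair printed here, whose entries differ by where they begin and end.
PN-80868-5p: tGCGTGGCttctctgtgcagtct
PN-80865-5p: cCCTGCGTggcttctctgtgca
PN-80868-5p held 46, 19 and 6 copies at E90, day 0 and day 30 and none later, and PN-80865-5p held 44, 25 and 16 copies at day 180, 4 in 7 years replicate 1 and none earlier. Their seeds differ although their bodies overlap. Joined, the locus was listed in 7 of 9 libraries, and averaged 0.214 ± 0.37 RPM at 7 years and 2.59 ± 0.923 RPM at day 180 (SD, n = 3 each). Both sequences are also listed, with the same copies, on chromosome 2 as PN-88902875-5p and PN-88902872-5p.

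PN-45712-3p and PN-45711-3p have the same 18 nt consensus and take turns over the libraries. Together with PN-45714-3p their locus held 7 copies at E90, none at day 0 and day 30, then 120, 57 and 59 at day 180 and 29, 12 and 30 at 7 years. Joined levels were 3.69 ± 0.83 RPM (SD, n = 3) at 7 years and 7.26 ± 2.25 (SD, n = 3) at day 180, where each entry alone showed gaps. PN-44808832-5p shares its locus on chromosome 12 with PN-44808833-5p and with PN-44808835-5p, the highest entry just outside the rule. This locus held 105 copies at E90, 25 at day 0 and 37 at day 30, then 12, 7 and 4 at day 180 and 0, 0 and 5 at 7 years. A member listed in 1 period only may therefore be 1 name of a locus seen in both. Counting overlapping entries of the same chromosome field, 38 members in place of 46 were of the later period only, 23 in place of 27 of the early period only, and 71 in place of 59 of both.

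**Figure D3:**
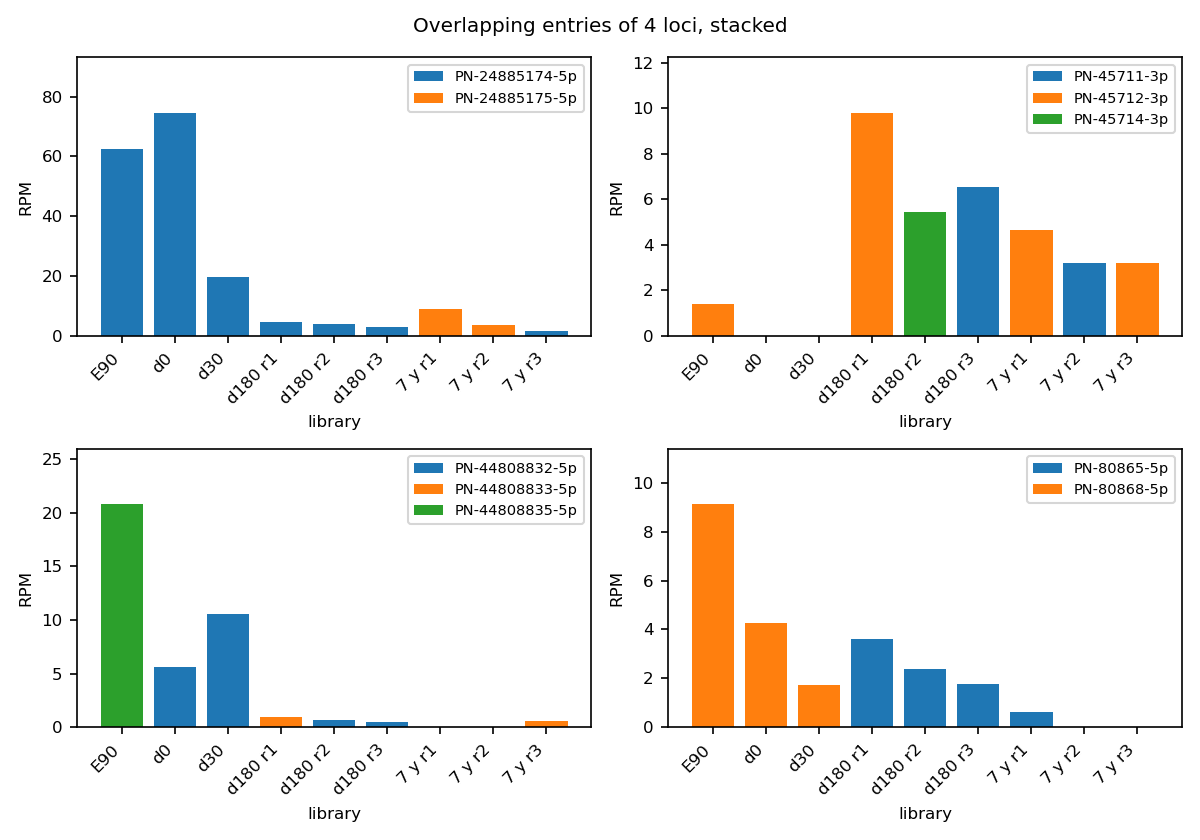
RPM of overlapping entries in each library for 4 loci, stacked, 1 colour per entry. No library of these panels is filled by more than 1 entry. The bars of a panel give the level of its locus, for example 8.81, 3.76 and 1.49 RPM at 7 years for PN-24885174-5p with PN-24885175-5p.

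The name "one-armed" did not hold for every member, and some members were listed more than once. In 6 members the other arm is in the table under a neighbouring hairpin name, as for PN-4056272-3p with PN-4056308-5p. In 17 members the sequence and all copies equal those of another entry at another place, which leaves 124 separate members, the number that entered the tests.

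Members matched their own precursors about as often as other single-armed entries and less often than entries with both arms or conserved ones, without a test. The consensus equalled a stretch of the listed precursor in 68 of 132 members (51.5%) and differed from it at exactly 1 base in the other 64 (48.5%). Of putative new entries with both arms listed 62 of 72 (86.1%) matched exactly, as did 86 of 100 conserved entries, and of the single-armed entries listed in 1 library 50.5%. The difference was at the last base alone in 16 members and elsewhere in 48. It was tied to length: 2 of 29 members of 17 to 19 nt matched exactly (6.9%), against 63 of 97 of 20 to 24 nt (64.9%). A base that differs from the precursor can be a sequencing error, a base added after processing, an RNA edit, a base of the breed or a read from another place, and which of these applies was not tested.

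The lengths themselves were those of miRNAs in most members. Of the 132, 97 (73.5%) had a consensus of 20 to 24 nt, 29 (22%) of 19 nt or less and 6 of 25 or 26 nt, and 22 nt was the commonest length with 40 members. Entries with both arms listed were of 20 to 24 nt in 87.5%, and conserved entries in 89%. Of the 459 sequences listed per library, 331 (72.1%, exact 95% binomial interval 67.8 to 76.2, counting error only) were of this length. The interval takes repeated listings of a member as separate draws, so it is too narrow. E90, day 0 and day 30 had shares of 59.6%, 65.2% and 58.3%, the libraries of day 180 75.4%, 80% and 80.4%, and those of 7 years 81.8%, 81.2% and 76.6%, so that each later library stood above each early one when sequences were counted. Weighted by copies the shares were 67%, 62.3% and 40.3% in the early libraries in order of age, 63.4%, 71.5% and 51.8% at day 180, and 79.4%, 57.6% and 58.6% at 7 years, and the periods overlapped. The most abundant sequence was the same in every library in 97 members. Its length varied most in PN-121669915-3p, from 20 to 25 nt, PN-52426315-5p, from 21 to 25 nt, and PN-12631-3p, from 20 to 23 nt. PN-2840923-5p, from 17 to 19 nt, had the same span as 3 further members.

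**Figure D4:**
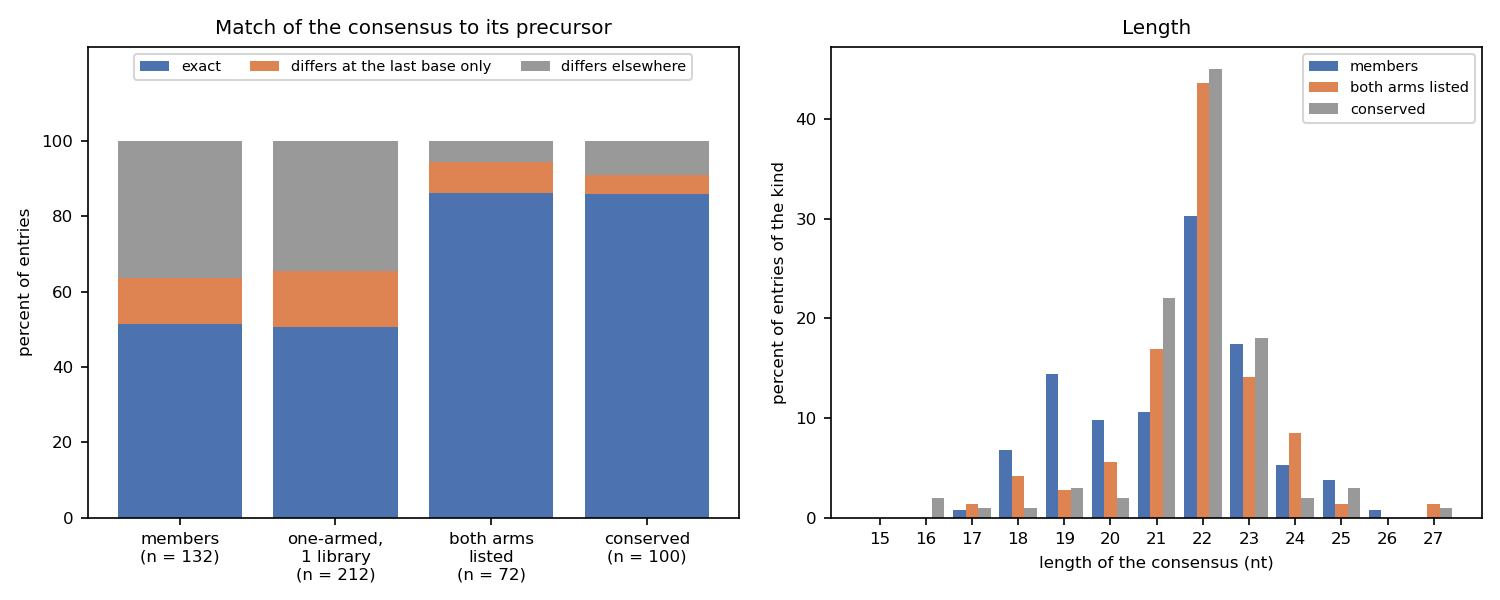
Left, percent of entries whose consensus equals its precursor, differs at the last base only or differs elsewhere, for the 132 members, 212 single-armed entries in 1 library, 72 entries with both arms listed and 100 conserved entries. Right, percent of entries of each kind at each length in nt. Members match exactly in 51.5% and have a shoulder at 18 and 19 nt beside the peak at 22 nt.

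A small set of members ended alike. Of the 132, 8 ended in AGT, all of them 3p arms, and in all 8 the last T was not in the precursor. Among the single-armed entries of 1 library 16 of 212 (7.55%) ended in AGT, 9 of them with a last base that differed, against 6.06% of the members, so the end was not particular to the members. None of the 72 entries with both arms listed ended in AGT, and of 7 conserved entries that did, 1 had a last base that differed from its precursor. The precursors of 3 of these members are shown with the stretch of the mature arm in capitals.
PN-11744-3p: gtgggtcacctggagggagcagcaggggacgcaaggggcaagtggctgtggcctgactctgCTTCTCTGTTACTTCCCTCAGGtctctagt
PN-123700-3p: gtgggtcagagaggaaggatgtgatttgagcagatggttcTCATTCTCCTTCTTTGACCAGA
PN-78800382-3p: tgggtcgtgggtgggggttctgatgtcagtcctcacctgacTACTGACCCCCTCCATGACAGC
Counted from the 5′ end of the mature arm, with the base of the precursor first, the change was G22T in PN-11744-3p, A22T in PN-123700-3p and C22T in PN-78800382-3p. The T thus followed an AG that the precursor holds. The letters GTGGG, searched on the given strand within the first 12 bases of the precursor after these were seen, occurred in 6 of the 8 (75%), in 2 of the other 124 members (1.61%), in 1 of the 16 (6.25%) single-armed entries of 1 library that end in AGT and 5 of the 196 (2.55%) that do not, in 0 of 72 entries with both arms listed and in 1 of 100 conserved entries (1%). Whether these hairpins are introns was not tested, since no annotation of the assembly Sscrofa10 was used here.

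The members ending in AGT were listed at all ages. PN-11744-3p had the most copies early, 86 at E90 and 35 at day 0, none at day 30, and 0 to 4 in each later library. PN-49755976-3p, which is of this set too, was the steady one. In sum E90 had 29.6 RPM, day 0 had 23.5, day 30 had 10.6, day 180 had 6.33 ± 1.4 and 7 years had 4.29 ± 2.1 (mean ± SD, n = 3 for the later ages). At 7 years the libraries stood at 5.77, 1.88 and 5.22 RPM and overlapped with those of day 180 at 6.44, 7.67 and 4.88.

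Very GC-rich members formed another set. In 16 members the GC content was at least 75%, and 3 of these matched their precursor exactly. In sum E90 had 48.2 RPM, day 0 had 53, day 30 had 67.9, day 180 had 26.6 ± 7.48 and 7 years had 7.5 ± 4.51. PN-1311190-3p shares 18 bases with PN-5365914-5p on another chromosome field, and PN-7563663-3p on chromosome 9 shares 16 bases with PN-4010172-5p on chromosome 2. The 18 bases are the whole of PN-5365914-5p, but their T at base 8 is in neither precursor (G8T in PN-1311190-3p, C8T in PN-5365914-5p). A read of these bases thus differs from each place at 1 base. The second pair differs at both ends and has copies of its own under each name. Its shared bases hold a G that neither precursor has (C7G in PN-7563663-3p, T4G in PN-4010172-5p). A further 6 members ended in CCA, the end that mature tRNAs carry, and in sum E90 had 16.3 RPM, day 0 had 16.6, day 30 had 7.77, day 180 had 5 ± 0.683 and 7 years had 3.71 ± 2.48 (here as above, mean ± SD with n = 3 for the later ages). Whether any of them comes from a tRNA was not tested.

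The comparison of 7 years with day 180 asks which members differ between aged and young adult muscle. No member was called among 54 tested (edgeR quasi-likelihood test, Benjamini-Hochberg adjusted p under 0.05), where 3.43% of all 175 tested arms were called. The 54 are those that passed a filter on low counts and not all 124, and 40 of them had copies at either age. The rest passed through earlier libraries, had no copies at either age and could not be called. Of the 175 arms, 131 had copies at either age. DESeq2's Wald test called 2 members and 11 of all 175 arms. Leaving out 7 years replicate 3 gave calls in 2 of 48 members and 8 of 165 arms. An unadjusted edgeR p under 0.05 was reached by 4 members, against 12.6% of all tested arms. These 4 are named because of these values. TMM scales by the bulk of arms, and with total reads alone the log2 fold changes shifted by −0.82.

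PN-48639689-3p stood at 0.641, 0 and 0.533 RPM at 7 years, against 4, 5.56 and 4.99 at day 180, groups that did not overlap. Its log2 fold change was −2.69 (SE 1.03, edgeR adjusted p = 0.277). It was called lower with total reads (edgeR adjusted p = 0.0383), by DESeq2's Wald test (adjusted p = 0.0368), with empty cells as 2 copies (edgeR adjusted p = 0.0102) and with overlapping entries joined (edgeR adjusted p = 0.048), and its adjusted p was above the threshold in the other settings. PN-35031369-5p (chromosome 14, 35031369 to 35031627, plus strand) was listed in no library of 7 years, against 1.96, 1.25 and 4.1 RPM at day 180, at least 4.55-fold lower with a floor of 3 copies per library (edgeR adjusted p = 0.217), and DESeq2's Wald test called it (adjusted p = 0.0335).

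In the other direction, PN-9505866-5p (chromosome 5, 9505866 to 9506128, plus strand) stood at 0.481, 2.15 and 0.639 RPM at 7 years and was listed in no library of day 180 (at least 3.78-fold higher, edgeR adjusted p = 0.255). PN-24885175-5p was at least 14.5-fold higher at 7 years (edgeR adjusted p = 0.115) when taken alone. PN-9505866-5p and PN-24885175-5p passed the filter on low counts only through libraries of 7 years, so a difference was built into their being tested. PN-24885175-5p was called without a filter (edgeR adjusted p = 3.4e-05) and without 7 years replicate 3 (edgeR adjusted p = 0.0302), which also gave a call to PN-24885174-5p. Joined with PN-24885174-5p, the log2 fold change of the locus was 1.12 (edgeR adjusted p = 0.361). The median log2 fold change was −0.22 over the 54 tested members, those without copies at either age included at 0, and −0.1 over all 175 arms. In ratios of RPM, with a floor in place of 0, it was −0.88 over the 40 tested members with copies at either age and −0.81 over 131 such arms.

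The libraries of day 180 and 7 years were then set against the libraries up to day 30, to ask which members separate adult from developing muscle. The early ages had 1 library each, so that the comparison sets 6 libraries of 2 ages against 3 libraries of 3 ages, and replicates of an age count as separate units. Of 25 members tested, 13 (52%) were called, 6 higher and 7 lower in the later libraries (edgeR, adjusted p under 0.05). Over all 91 arms tested 59.3% were called, 20.9% higher and 38.5% lower, so the members' share of calls was near that of the whole. Of the 13, 5 had copies in 1 period alone and passed the filter on low counts through it. PN-36616-3p also passed through the later libraries alone, and PN-4010172-5p, PN-39469396-5p and PN-3335108-5p through the early ones alone. For all of these a difference was built into their being tested. The 99 separate members beyond the 25 were not tested. Calls are relative to the bulk of tested arms: with total reads alone the fold changes shifted by −1.66 on the log2 scale and 10 members were called, 1 higher and 9 lower, 8 of them among the 13. DESeq2's size factors shifted them by 0.59 and gave 14 calls, 8 higher and 6 lower. DESeq2's Wald test gave 18 calls, 11 higher and 7 lower. Leaving out any 1 of the day 180 libraries gave 8 calls, with 44 to 47 of 81 arms called. Over all 91 arms total reads gave 59 calls, DESeq2's size factors 59 and its Wald test 62.

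PN-36616-3p, described before, had the firmest call among the higher members (8.71 ± 3.27 RPM in the 6 later libraries and 0.288 ± 0.498 in the 3 early ones, SD; log2 fold change 6.52, SE 1.32, edgeR adjusted p = 0.00287). It was called in all 18 alternative settings, though in the main fit it passed the filter on low counts through the later libraries alone. PN-15340142-5p (chromosome 7, 15340142 to 15340403, plus strand) had 1.63, 1.72 and 1.66 RPM at day 180, 0, 0 and 0.426 at 7 years and none earlier. It was at least 1.28-fold higher (log2 fold change 6.28, SE 1.80, edgeR adjusted p = 0.0133), a call that ended with total reads (edgeR adjusted p = 0.0625) and with a term per stage (edgeR adjusted p = 0.0543), and in 5 other settings it was not tested. PN-80865-5p was at least 1.97-fold higher, with a log2 fold change of 6.84 (SE 2.0, edgeR adjusted p = 0.0147). Joined with PN-80868-5p, the locus had a log2 fold change of −0.08 (edgeR adjusted p = 0.949).

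The other 3 higher calls concerned members that were listed in all libraries. Their groups overlapped in RPM, as did those of PN-15340142-5p and PN-80865-5p. PN-1311190-3p averaged 15.5 ± 11 RPM later and 9.42 ± 3.52 early (SD; 2.38 on the log2 scale, SE 0.78, edgeR adjusted p = 0.0192), and PN-122371794-3p 4.7 ± 4.13 later and 2.92 ± 1.33 early (SD; 2.40, SE 0.84, edgeR adjusted p = 0.0281). PN-23443309-3p averaged 3.72 ± 1.82 RPM later and 4.19 ± 1.14 early (SD), so that its log2 fold change of 1.60 (SE 0.64, edgeR adjusted p = 0.0493) is higher only relative to the other arms. With total reads none of the 3 was called (edgeR adjusted p = 0.439, 0.508 and 0.804), and PN-23443309-3p then had a log2 fold change of −0.18. The call of PN-122371794-3p also ended without day 30 replicate 1 (edgeR adjusted p = 0.071), without day 180 replicate 1 (0.0677) and without day 180 replicate 2 (0.0616), and that of PN-23443309-3p in 8 of the 9 settings that leave out a library, the exception being 7 years replicate 1.

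Of the 7 lower members, 3 had no copies in any of the 6 later libraries. Like PN-15340142-5p and PN-80865-5p, which had none in the early libraries, they passed the filter on low counts only through the period in which they were listed, so a difference was built into their being tested. PN-7563663-3p had 4.96, 16.1 and 3.16 RPM in the early libraries in order of age and was at least 19.6-fold lower later (log2 fold change −7.58, SE 1.28, edgeR adjusted p = 0.00333). PN-80868-5p, the early name of the locus shown above, was at least 12.2-fold lower under this name alone (−6.96, SE 1.25, edgeR adjusted p = 0.00399). PN-173927076-3p (chromosome 1, 173927076 to 173927335, minus strand) stood at 1.98, 3.36 and 3.74 RPM early and was at least 7.35-fold lower (−6.32, SE 1.15, edgeR adjusted p = 0.00411). None of the 3 was called with a term per stage (edgeR adjusted p = 0.0654, 0.106 and 0.133).

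The other 4 lower members had copies at day 180, from 5 in all for PN-4010172-5p to 58, 43 and 27 in the 3 libraries for PN-24885174-5p. Only PN-24885174-5p had enough copies in the later libraries to pass the filter through them too. PN-4010172-5p (chromosome 2, 4010172 to 4010430, plus strand) was listed in day 180 replicate 1 alone of the later libraries, at 0.408 RPM, against 7.93, 3.13 and 3.45 RPM at E90, day 0 and day 30 (log2 fold change −4.03, SE 1.09, edgeR adjusted p = 0.00831). PN-39469396-5p (chromosome 12, 39469396 to 39469654, minus strand) was listed in day 180 replicate 2 alone, at 0.479 RPM, against 3.37, 4.7 and 8.34 RPM early (−4.05, SE 1.20, edgeR adjusted p = 0.0127). The log2 fold change was −3.38 for PN-3335108-5p (SE 1.09, edgeR adjusted p = 0.0186). For PN-24885174-5p, at 2.22 ± 2.04 RPM later and 52.1 ± 28.8 early (SD), it was −2.75 (SE 1.04, edgeR adjusted p = 0.037), and −1.72 with its overlapping entry joined (edgeR adjusted p = 0.03). In all 7 the later libraries lay below the early ones without overlap. RPM was lower later over all 91 arms too, with a median log2 ratio of −2.63. How many of these arms did not overlap was not counted, so this is no trait of the members. For all of the 7 but PN-24885174-5p, a difference was also built into their being tested.

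Single libraries decided some of these 4 calls, and each of the 4 was lost with a term per stage and without a filter. PN-39469396-5p was not called without day 30 replicate 1 (edgeR adjusted p = 0.0517). PN-3335108-5p was not called without E90 replicate 1 (edgeR adjusted p = 0.0595) or without day 0 replicate 1 (edgeR adjusted p = 0.105). PN-24885174-5p was not called without E90 replicate 1 (edgeR adjusted p = 0.104), without day 0 replicate 1 (edgeR adjusted p = 0.171) or without day 180 replicate 3 (edgeR adjusted p = 0.064). Of the 12 tested members that were not called, PN-76693897-3p stood at 2.64 on the log2 scale (SE 1.18, edgeR adjusted p = 0.0709) and PN-48639689-3p at −0.17 (SE 1.01, edgeR adjusted p = 0.889). The median log2 fold change was 0.32 over the 25 members and −0.75 over the 91 arms, and in ratios of RPM, with a floor in place of 0, −1.36 and −2.63.

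**Figure D5:**
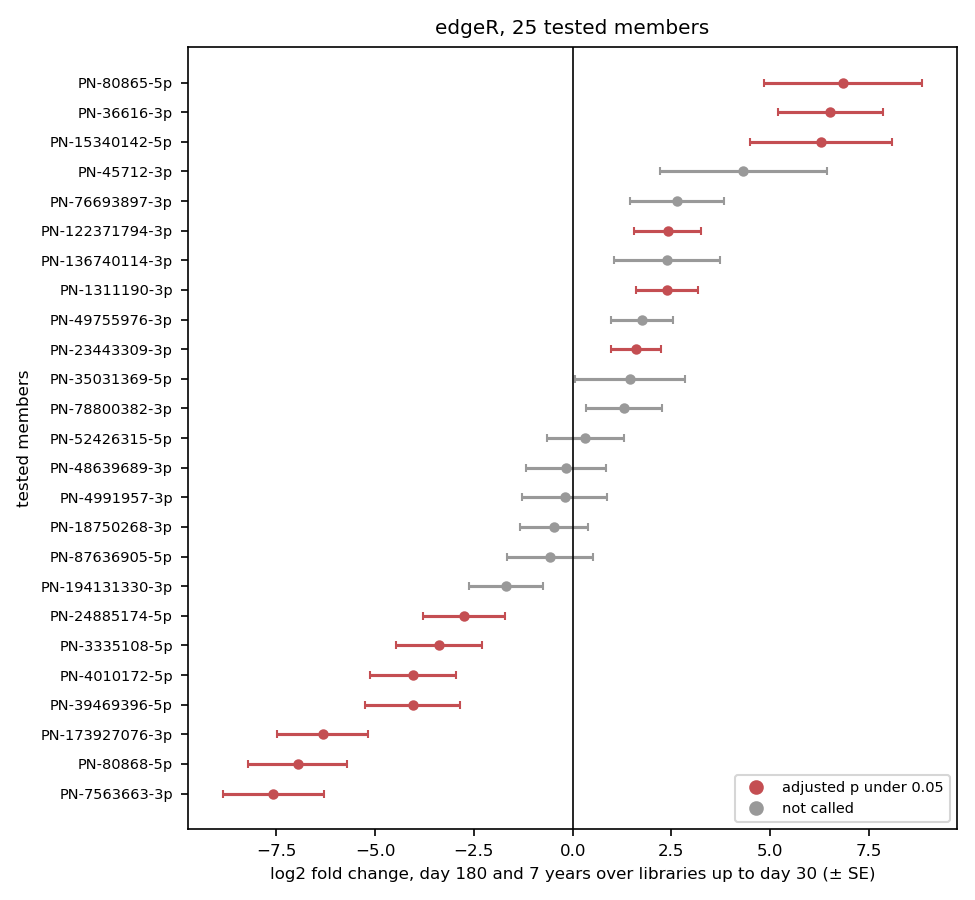
Log2 fold change (± SE) of the 25 tested members, day 180 and 7 years over the libraries up to day 30, from edgeR with TMM scaling. Red points are the 13 called members, from −7.58 for PN-7563663-3p to 6.84 for PN-80865-5p, and grey points the 12 not called. With total reads alone the values shift by −1.66.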

How the data were processed

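The authors deposited 1 table of conserved and 1 of putative new miRNAs with counts, whole-number copies per library, and beside them the most abundant sequence and its length, per the file headers. High-quality reads, 3476614 to 12259667 per library, and the assembly Sscrofa10 are taken from the headers too. Per the labels' protocols, RNA of 10 to 40 nt was cut from a gel and run on an Illumina Genome Analyzer II. For the aligner, the miRNA caller and the meaning of empty cells: not given in the sources used here. Empty cells were counted as 0.

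RPM was computed as copies per 1000000 high-quality reads. Floors of 3 copies and intervals cover counting error only. Entries with equal sequence and copies were tested once. edgeR 4.0.16 (R 4.3.3; TMM on high-quality reads, filterByExpr with minimum count 10 and total 15, robust quasi-likelihood) was fitted to all arms of both tables, with a term per stage for 7 years against day 180 and with 2 groups for later against early libraries. Adjustment was by Benjamini-Hochberg over all arms tested. The fits were tested on simulated data with log2 changes of 3 and the same spread for every arm. That test does not cover smaller changes or the spread of these libraries. DESeq2 1.42.0 was an alternative. A standard error is the size of the log2 fold change over the root of its F. Sums and shares have no test. Chi-square per degree of freedom between replicates was 11.1 to 27.4, more than counting error gives. The members and lists were chosen with earlier results of these data known. Members named are the 10 with the highest mean RPM, those called, those in all libraries, the 3 highest in exactly 2 libraries and the 3 highest just outside the rule, up to 4 with shared seeds and up to 4 with the most varied length. Plots were drawn with matplotlib 3.10.9.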

Additional observations from a re-analysis of the deposited data

Results flagged for a closer look

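Of 21 named members with copies in the 6 libraries of day 180 and 7 years, 4 had a library far from the others there. Chance sets apart about 1 in 20 groups of values that vary freely, a rate that does not apply to the first 3 here, since a single listing among empty cells always stands apart. PN-4010172-5p was at 0.408 RPM in day 180 replicate 1 and at 0 in the other 5. PN-39469396-5p was at 0.479 RPM in day 180 replicate 2 and at 0 in the other 5. PN-12631-3p was at 0.383 RPM in day 180 replicate 2 and at 0 in the other 5. PN-18750268-3p was at 0 RPM in 7 years replicate 2, which has the fewest reads of the 6, and at 1.28 to 1.82 in the other 5.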

How the results depend on the processing

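For 7 years against day 180, where edgeR called 0 of 54 members, 1 was called with total reads, 2 by DESeq2's Wald test, 1 with no filter on low counts, 1 with empty cells as 2 copies and 2 with overlapping entries joined, and 0 to 2 when 1 library was left out, 2 without 7 years replicate 3. Over all arms the calls in the same order were 14 of 175, 11 of 175, 9 of 495, 6 of 189 and 11 of 151, and 2 to 8 with 1 library left out. One of the joined calls, at PN-32286945-5p, includes a hairpin left out here. Replicate numbers did not pair the libraries: deviations of same-numbered libraries correlated at 0.0088, −0.164 and −0.145, and a replicate block over these 6 libraries called 0 of 17 members tested, as did these libraries without it. For later against early libraries, 13 calls became 4 of fewer members tested under the stricter filter, 6 with a term per stage, 18 (11 higher, 7 lower) with DESeq2's Wald test and with no filter on low counts, 19 (12 higher, 7 lower) with empty cells as 2 copies, 17 (8 higher, 9 lower) with overlapping entries joined, and 8 to 16 when 1 library was left out, for causes that were not tested. The calls over all arms in the same order were 35 of 49, 46 of 175, 62 of 91, 71 of 495, 64 of 91 and 56 of 91, and 44 to 61 with 1 library left out. Summed levels became 211 (E90), 230 (day 0), 144 (day 30), 107 (day 180) and 40.3 RPM (7 years) over members in at least 3 libraries, 298 (E90) and 310 RPM (day 0) with overlapping entries joined, chosen after seeing the data and including 39.9 and 50.3 RPM of PN-32286946-5p, a hairpin left out here, and, as a share of all copies, 0.911, 1.36, 1.88, 4.09 and 2.94% in the same order of ages; left-out libraries gave 112 to 122 RPM at day 180 and 47.5 to 51.4 RPM at 7 years. The share of sequences of 20 to 24 nt was 61.6% by copies and 60.3% for 21 to 23 nt. Log2 fold changes that changed sign for 7 years over day 180, none of them called, were those of PN-18750268-3p (−0.66 total reads, −0.34 stricter filter, −0.17 empty cells as 2 copies, −0.11 replicate block, −0.30 to 0.66 with a library left out), PN-23443309-3p (−0.10 total reads, −0.01 to 1.26 with a library left out) and PN-36616-3p (−0.69 total reads, −0.43 stricter filter, −0.46 empty cells as 2 copies, −0.07 to 0.59 with a library left out). For later over early they were PN-18750268-3p (0.17 with DESeq2 factors or test, 0.01 no filter, 0.03 empty cells as 2 copies, −0.66 to 0.20 with a library left out, 0.14 a term per stage), PN-23443309-3p (−0.18 total reads), PN-48639689-3p (0.38 with DESeq2 factors or test, 0.28 no filter, 0.88 stricter filter, 0.18 empty cells as 2 copies, −0.70 to 0.46 with a library left out), PN-52426315-5p (−1.33 total reads, −0.69 putative new table alone, −0.22 to 1.01 with a library left out) and PN-80865-5p (−0.08 joined). Depth limits all of this: 3 copies are the floor of a listing, and most listed values are under 10 copies.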

Other observations

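PN-48639689-3p carries no chromosome name, but its positions, 48639689 to 48639952 on the plus strand, fall by number between mir-188 (X, 48632378 to 48632485, plus strand) and mir-660 (X, 48640809 to 48640903, plus strand). For miR-660-5p of the conserved table E90, day 0 and day 30 had 1402, 810 and 230 RPM, the libraries of day 180 had 138, 68.1 and 99.5 RPM, and those of 7 years 4.17, 4.84 and 4.05 RPM. PN-48639689-3p stood at 16.7, 6.94, 5.47, 4, 5.56, 4.99, 0.641, 0 and 0.533 RPM in the same libraries. Both were lowest in the 3 libraries of 7 years. Whether the entry belongs to this part of the X chromosome cannot be read from a position without a chromosome.

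The members ending in AGT and carrying GTGGG near the start of their precursor were found by looking at the sequences, so the counts given for them describe these tables. Of the 16 last-base changes among all members, 11 were to T (5 from A, 3 from C and 3 from G), and the other 5 were to C, G or A.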
